A study of Mus musculus with 30 samples.

Results

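The cytosolic ribosomal protein genes and their close relatives by name were followed in mouse embryonic stem cells (ESCs) across a change of carbon source and across long-term culture media. A gene was taken when its symbol was Rpl or Rps followed by a number, Rplp0 to Rplp2, or Rpsa. The Rps6k kinases and symbols containing -ps were left out. This gave 93 genes of 52630 in the time-course table, and the same 93 of 55487 in the passage table. Of these, 77 encode the standard proteins of the mouse ribosome (core genes), 46 for the large subunit and 31 for the small subunit. The other 16 are paralogs, retrogenes and genes that match by name alone (the paralog group). In this group Rps4l, Rpl37rt, Rps3a2, Rps3a3, Rpl32l, Rpl6l and Rps12l1 are annotated as processed pseudogenes, whose symbols lack -ps. Rps19bp1, also of the group, encodes a nucleolar protein that binds the deacetylase SIRT1. Rpl7l1 encodes a relative of Rpl7 that is not a standard protein of the mature ribosome.

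All libraries came from E14tg2a, an established mouse ESC line, and no genetic change was stated for any group. In the time course, cells were in Serum/LIF (labelled 0 h, although the treatment protocol speaks of Serum/LIF for 24 h, so the time that the reference libraries stand for is uncertain) or had spent 3, 9 or 24 h in Enhanced Metabolic Media (EMM), which is Serum/LIF medium with D-galactose in place of D-glucose and pyruvate. In the passage experiment, cells were kept for 10 (P10) or 20 passages (P20) in Serum/LIF, EMM or 2i/LIF, the last a medium with inhibitors of GSK3 and MEK. LIF, a cytokine that maintains ESCs, was present in all groups. Each of the 10 groups had 3 libraries, which is 12 in the time course and 18 in the passage experiment, and all came from 1 cell line. The time-course comparisons ask how ribosomal protein mRNAs moved in the first day after glucose was replaced, and the passage comparisons ask where they stood once cells had adapted to each medium.

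The ribosome is built from ribosomal RNA and a single copy of most of the core proteins, and their mRNAs are among the most abundant in growing cells. Many of these mRNAs begin with a run of C and T bases called a 5′ terminal oligopyrimidine (TOP) tract, and their translation is controlled by the growth kinase complex mTORC1 and by LARP1. Some core genes have paralogs with a narrower expression: Rpl10l is a retrogene of the X-linked Rpl10 known from the testis, Rpl39l is a paralog of Rpl39 known from the testis and from ESCs, Rps27l is a p53 target related to Rps27, Rpl3l is a heart and skeletal muscle form of Rpl3, and the protein of Rpl22 is known to bind the mRNA of its paralog Rpl22l1 and lower its level.

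The starts of the genes that the results turn on are printed below, core genes beside their paralogs, because the TOP tract lies there. A run is absent from some core windows (Rpl22, Rpl10 and Rps15) and present in some paralog windows (Rpl22l1). Each line is 30 bases of GRCm38.p6, from 10 bases before the RefSeq start of the gene to 20 bases from it, read 5′ to 3′ on the strand of the gene. Capitals mark runs of at least 6 C or T bases.
Rps27, chr3:90213629-90213658, minus strand: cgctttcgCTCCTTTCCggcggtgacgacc
Rps27l, chr9:66946076-66946105, plus strand: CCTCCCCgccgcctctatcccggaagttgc
Rpl39, chrX:37085203-37085232, minus strand: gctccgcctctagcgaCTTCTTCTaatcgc
Rpl39l, chr16:10170218-10170247, plus strand: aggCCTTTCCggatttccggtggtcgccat
Rpl22, chr4:152325716-152325745, plus strand: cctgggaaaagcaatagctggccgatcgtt
Rpl22l1, chr3:28805498-28805527, plus strand: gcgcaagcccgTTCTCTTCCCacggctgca
Rpl10, chrX:74270806-74270835, plus strand: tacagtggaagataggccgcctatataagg
Rpl10l, chr12:66284382-66284411, minus strand: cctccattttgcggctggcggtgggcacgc
Rps12, chr10:23787190-23787219, minus strand: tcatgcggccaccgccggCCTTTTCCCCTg
Rplp0, chr5:115559457-115559486, plus strand: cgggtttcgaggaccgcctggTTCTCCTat
Rps15, chr10:80292421-80292450, plus strand: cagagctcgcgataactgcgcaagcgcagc
Rpl7l1, chr17:46782637-46782666, minus strand: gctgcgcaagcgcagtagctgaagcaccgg

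RefSeq gave such a window for 68 of the 93 genes. A run of at least 8 C or T bases, on the gene's strand, was present in 20 of 57 core windows (35.1%), in 2 of 11 windows of the paralog group (18.2%) and in 3693 of 32851 windows of all promoters in the same table (11.2%). The RefSeq start need not be the base at which transcription begins in ESCs, and a window without a run says only that these letters are not there. Some starts differ in the GENCODE M21 annotation. There Rps15 starts at 80292453, after its window, Rpl22 at 152325742, near its window's end, and Rps12 at 23787275, upstream of its window.

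The libraries held 24074132 to 35301962 counts in the time course and 6944904 to 27912928 in the passage experiment. Normalized counts below are counts scaled for library size and composition, and a gene was called higher or lower when its Benjamini-Hochberg adjusted p from edgeR's quasi-likelihood test was under 0.01 over all genes tested. Of the 93 genes, 90 passed the filter on low counts in the time course (not Rpl6l, Rps3a2 or Rps12l1) and 91 in the passage experiment (not Rpl32l or Rps12l1), so all 77 core genes were tested in both. The normalized counts of the mouse ESC markers summed to 157871 to 167094 per library in the time course. The members did not move alike. From Serum/LIF to 3 h the mean of Esrrb went from 22782 to 34340 and that of Sox2 from 20755 to 13743. Zfp42 went from 18656 in Serum/LIF to 14188 at 24 h. In the passage experiment the sum moved with the groups. At P10 it was 75175 to 79765 in Serum/LIF, 94554 to 124071 in EMM and 70772 to 84614 in 2i/LIF. At P20 it was 80921 to 87483 in Serum/LIF, 69998 to 71688 in EMM and 79821 to 108224 in 2i/LIF. The mitochondrial share of counts moved too, from 1.64% to 1.92% in Serum/LIF of the time course to 2.03% to 2.25% at 24 h. At P10 it was 0.986% to 1.23% in Serum/LIF, 0.848% to 1.88% in EMM and 1.47% to 3.39% in 2i/LIF. At P20 it was 2.16% to 2.24% in Serum/LIF, 2.26% to 2.54% in EMM and 1.04% to 2.75% in 2i/LIF. The part of either in the ribosomal differences was not tested. Several genes, among them Rpl24, Rpl36al, Rps3a2, Rpl13a and Rpl23a, were counted very differently in the 2 experiments. Rpl36al had 59.7 to 115 normalized counts per time-course library and 2662 to 3808 in passage libraries. From time-course to P10 Serum/LIF, Rps3a2 had 4.8, 3 and 1.1 against 13240, 12901 and 12823. Rpl13a had 4036, 4015 and 3175 against 30772, 31459 and 31028, and Rpl23a 4431, 4422 and 4856 against 16760, 16929 and 17115. Rps3a1, Rps3a2 and Rps3a3, Rps4l and Rps4x, and Rpl37rt and Rps27rt with their parents are closely related copies whose reads the counting could split, so their values are uncertain. These are bulk samples, in which fewer cells of a type and less RNA per cell cannot be told apart.

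Libraries of the time course also differed within their groups in a way that took 55.2% of the within-group variance over all genes. A score from the 20 genes outside the ribosomal set that followed this axis most closely, among them Fau, Ndufb6, Uqcr11, Romo1 and Sec61b, was 10.4 to 10.5 in EMM 9 h library 3 and EMM 24 h libraries 2 and 3, was 9.75 and 10.2 in Serum/LIF libraries 1 and 3, and was 8.60 to 9.03 in the other 7 libraries. Among the ribosomal protein genes, 6 had a within-group SD over 0.3 on the log2 scale (Rpl13, Rpl18, Rpl27a, Rpl36, Rps10 and Rps19), against a median SD of 0.057. All 6 rose with the score, but the direction of the score was set by Rpl36, so its own rise was fixed in advance. Rpl36, of the large subunit, measured 7322, 1862 and 11647 normalized counts in Serum/LIF and 1563, 14624 and 14259 after 24 h in EMM. Rps19, of the small subunit, measured 10179, 8013 and 12871 in Serum/LIF and 8401, 16899 and 16685 at 24 h. Of the 5 genes with large called rises at 24 h described below, 3 also followed the score within groups, with a log2 change per unit of score of 0.12 in Rps27, 0.09 in Rpl30 and 0.14 in Rpl23a, while the value was 0.03 in Rps12 and -0.02 in Rps15. In Rpl36 and Rps19 the libraries with a high score lay above the others whatever their group, and neither was called at any time. The score is highest in 2 of the 3 libraries at 24 h, so part of its range goes along with the EMM comparison, and its part in the other changes was tested only by adding it to the fit, given with the counts below or in the closing section.

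**Figure D1:**
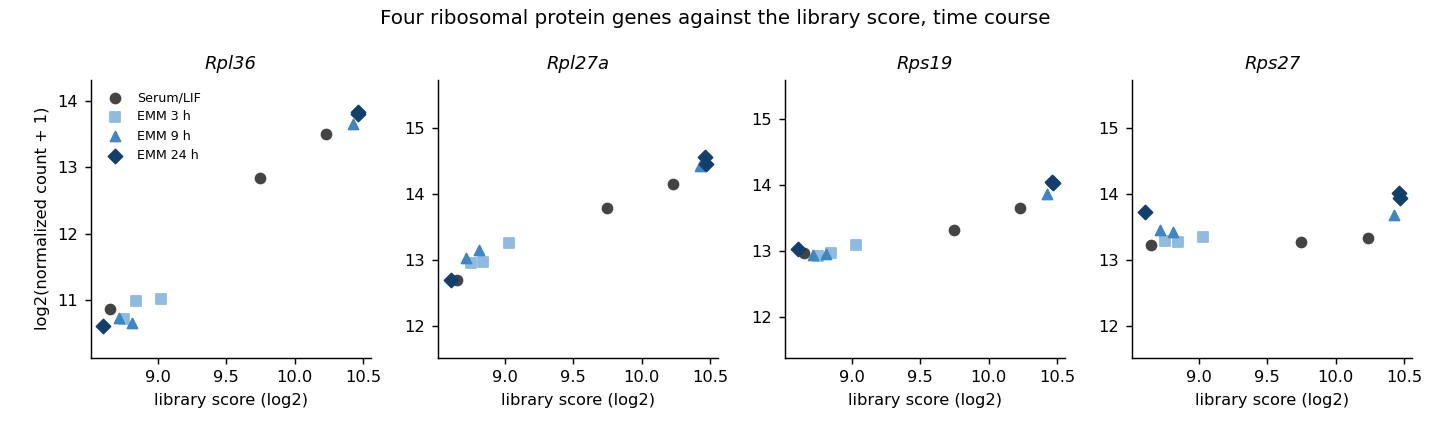
Each point is 1 time-course library, with its library score on the x axis and log2(normalized count + 1) on the y axis, for Rpl36, Rpl27a, Rps19 and Rps27, colored by group. Rpl36, Rpl27a and Rps19 sit high in the 5 libraries with scores of 9.75 to 10.5 and low in the other 7, while Rps27 is highest at 24 h and also follows the score within groups, with its high-score 9 h library at 13167 against 10945 and 11207.

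After 24 h in EMM the core ribosomal protein mRNAs stood slightly higher as a group, and 5 genes of the paralog group stood lower. Of the 77 core genes, 45 were higher and none lower by edgeR or DESeq2 (1 was lower at an unadjusted p under 0.05), with a median log2 fold change of 0.19 against 0.00 over all 16049 genes. Small-subunit genes made up 24 of these calls, of 31 tested, and large-subunit genes 21, of 46 tested. Over all genes, 21.8% were called higher and 22.2% lower in this comparison (44% in either direction), so about as many genes fell as rose elsewhere, while 46 of the 90 ribosomal protein genes were higher and 5 lower. In each of these 51 calls the 3 EMM libraries and the 3 Serum/LIF libraries did not overlap. The rises were small, with an interquartile range of core fold changes of 0.13 to 0.28 on the log2 scale, and no core gene passed a doubling. With the library score added to the fit, 57 genes were called higher and 8 lower, and none of the 51 calls was lost. The score was built from deviations within the groups of these same libraries. It takes up within-group spread by construction, so the added calls are no separate evidence.

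The largest of these rises was in Rps27, a small-subunit zinc finger protein whose copy Rps27rt had 9.3 to 25.1 normalized counts. It measured 9886, 9599 and 10334 normalized counts in Serum/LIF, 9865, 10458 and 9987 at 3 h, 10945, 11207 and 13167 at 9 h, and 13539.7, 16581 and 15757 at 24 h. The 3 h libraries overlapped with the Serum/LIF libraries, and the 24 h libraries lay above all others. The log2 fold change at 24 h was 0.62 ± 0.073 (SE; adjusted p = 3.8e-06), and from 9 to 24 h it was 0.38 ± 0.073 (adjusted p = 0.0016). Rpl23a, a large-subunit protein near the exit of the nascent chain, measured 4431, 4422 and 4856 in Serum/LIF and 5797, 7907 and 7281 at 24 h, a log2 fold change of 0.61 ± 0.089 (adjusted p = 3.2e-05). Rpl30, of the large subunit, measured 8145, 8194 and 8463 in Serum/LIF and 10455, 12084 and 12146 at 24 h, and it was already higher at 9 h. Its log2 fold change was 0.29 ± 0.058 at 9 h (adjusted p = 0.00081) and 0.48 ± 0.058 at 24 h (adjusted p = 5.1e-06).

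Rps12, a small-subunit protein whose window ends in the longest C and T run printed above, rose at every time. It measured 32081, 32549 and 31760.0 in Serum/LIF, 35673, 34986 and 34567 at 3 h, 36146, 36904 and 38273 at 9 h, and 40509.7, 43614 and 42828 at 24 h, with no overlap between neighbouring times. Its log2 fold change from Serum/LIF was 0.13 ± 0.035 at 3 h (adjusted p = 0.0086) and 0.40 ± 0.035 at 24 h (adjusted p = 2.2e-07). Rps15, of the small subunit and with no such run in its window, measured 25352, 25589.8 and 22642 in Serum/LIF and 32561, 35015 and 32106 at 24 h, a log2 fold change of 0.44 ± 0.046 (adjusted p = 1.3e-06). A rise at 24 h was measured in genes with and without such a run in the printed window. In the GENCODE M21 annotation Rps15 starts at 80292453, past the end of its window, and Rps12 at 23787275, upstream of its window. Whether either mRNA begins with a TOP tract cannot be read from these windows, and a link to the rise was not tested.

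The P stalk is the large-subunit arm of Rplp0, Rplp1 and Rplp2 that recruits translation factors. Its base, Rplp0, measured 39307, 40008 and 37410.1 in Serum/LIF and 44592, 43963 and 41979.5 at 24 h, a log2 fold change of 0.16 ± 0.035 (adjusted p = 0.0012). Rplp1 measured 35980.1, 33422 and 36888 in Serum/LIF and 32191, 42538 and 43471 at 24 h, and was not called (log2 fold change 0.15, 95% interval -0.10 to 0.41). Rplp2, its partner, measured 22739, 20371 and 23882 in Serum/LIF and 18751, 27009 and 27376 at 24 h, again without a call (log2 fold change 0.13, 95% interval -0.16 to 0.41). In both, EMM 24 h library 1, with a low library score, lay below every Serum/LIF library, and the other two 24 h libraries, with high scores, lay above them.

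Other core genes were not called. Rpl10, which completes the large subunit late in its assembly, measured 20376, 20306 and 20699 in Serum/LIF and 21096, 20680.5 and 20750.3 at 24 h, with a log2 fold change of 0.03 (95% interval -0.04 to 0.09). Rps6, the substrate of the S6 kinases, measured 17007, 17676 and 16364 in Serum/LIF and 17505, 18178 and 17337 at 24 h, with a log2 fold change of 0.05 (95% interval -0.02 to 0.13). Of the 2 proteins that bind MDM2 with the 5S RNA, Rpl5 was called higher at 24 h (0.15 ± 0.040, adjusted p = 0.0058), while Rpl11 had 0.09 (95% interval 0.01 to 0.16) and missed the threshold (adjusted p = 0.040).

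**Figure D2:**
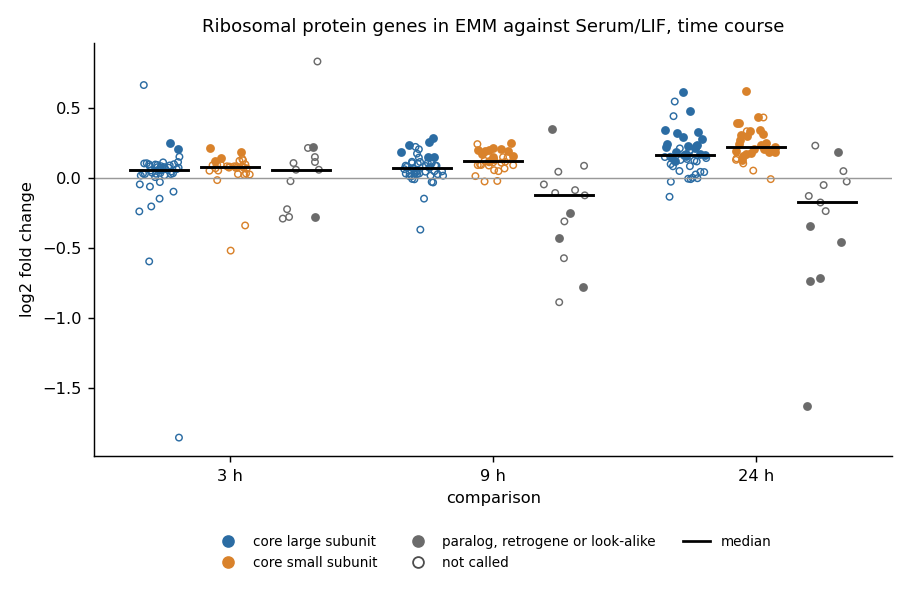
Each point is 1 ribosomal protein gene, with its log2 fold change against Serum/LIF at 3, 9 and 24 h in EMM on the y axis, split into core large-subunit, core small-subunit and paralog-group genes. Filled points were called, open points were not, and lines are medians, which at 24 h were 0.16, 0.22 and -0.17.

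The median log2 fold change of the core genes against Serum/LIF was 0.07 at 3 h, 0.09 at 9 h and 0.19 at 24 h. The share of genes called higher was under that of all genes at 3 h and near it at 9 h. At 3 h, 7 of the 90 genes were higher (7.78%) and 1 lower, where 16.3% of all genes were higher and 18.2% lower (34.5% in either direction). There were 6 core genes among them, including Rpl10a, Rps9, Rps12 and Rps23, and all 6 remained higher at 9 and 24 h. Rps9, an early-binding small-subunit protein, measured 28868, 30358 and 27794 in Serum/LIF and 34079, 33674 and 33572 at 3 h, a log2 fold change of 0.22 ± 0.040 (adjusted p = 0.00036). Rpl10a, of the large-subunit L1 stalk, measured 16572, 16714 and 15728 in Serum/LIF and 19010.0, 19098 and 18469.5 at 3 h, a log2 fold change of 0.21 ± 0.036 (adjusted p = 0.00023). The count of 8 calls at 3 h fell to 5 without Serum/LIF library 1 or 3 or without EMM 3 h library 1 or 3, to 4 without EMM 3 h library 2, and was 22 with the library score in the fit. Scaling by library totals alone also moved the median of all genes at 3 h by -0.08, and the median of the ribosomal genes was then 0.0054 in place of 0.07. As a share of all counts, the 93 genes took 5.44% to 5.46% in Serum/LIF and 5.37% to 5.44% at 3 h.

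At 9 h, 18 genes were higher (20%, near the share of all genes) and 3 lower, where 18.5% and 19.7% of all genes were, 38.2% together. Of the higher genes, 11 were small-subunit and 6 large-subunit core genes. All 17 of these core genes were also higher at 24 h, and 29 genes were called higher at 24 h alone. The 21 calls at 9 h were 42 with the library score in the fit and 38 without a filter on low counts. From 9 to 24 h, 8 core genes were called higher (8.89% of the 90 genes, near the share of all genes) and 2 paralogs lower. Over all genes, 7% were higher and 6.02% lower (13% in either direction). The 8 were Rpl23, Rpl23a, Rpl41, Rps12, Rps15, Rps27, Rps28 and Rps29. This count of 10 calls was 21 with the library score in the fit, 22 without a filter, 5 with only the 2 groups compared, and 4 without EMM 9 h library 1 or without EMM 24 h library 2. The share of all counts taken by the set rose to 5.53% to 6.0% at 9 h and 5.87% to 6.22% at 24 h, when every library was above every Serum/LIF library.

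Several paralogs moved unlike their parents, while Rpl22l1 and its parent Rpl22 were both higher at 9 h. Rpl10l measured 677, 694 and 690.5 normalized counts in Serum/LIF, 705, 728 and 717 at 3 h, 433, 353 and 416 at 9 h, and 444, 396 and 399.8 at 24 h. Serum/LIF and 3 h differed little, and all 9 h and 24 h libraries lay well below them. Between 3 and 9 h its log2 fold change was -0.84 ± 0.071 (adjusted p = 5.5e-07), the largest fall among the 4 genes called lower in that interval, where no ribosomal gene was called higher and 13.7% of all genes were higher and 12.9% lower, 26.5% together (10 were higher at an unadjusted p under 0.05, and 3 were called higher by DESeq2, and the 4 calls were 9 with the library score in the fit). At 24 h Rpl10l stood at -0.73 ± 0.072 against Serum/LIF (adjusted p = 5.7e-07).

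Rpl39l changed sign with time. It measured 898, 935 and 859 in Serum/LIF, 1028, 1091 and 1032 at 3 h, 751, 779 and 739 at 9 h, and 580.0, 573 and 492 at 24 h, and no 2 times overlapped. Its log2 fold change from Serum/LIF was 0.23 ± 0.060 at 3 h (adjusted p = 0.0064), -0.25 ± 0.062 at 9 h (adjusted p = 0.0036) and -0.71 ± 0.063 at 24 h (adjusted p = 2.2e-07). The call at 3 h was lost without Serum/LIF library 1 or 3 or any EMM 3 h library, and the call at 24 h was kept in every such fit. Its parent Rpl39, of the large-subunit exit tunnel, measured 4518, 4368 and 4237 in Serum/LIF and 5163, 4652 and 5001 at 24 h, a log2 fold change of 0.18 ± 0.045 (adjusted p = 0.0039).

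Rps27l went opposite to its parent Rps27. It measured 5778, 5739 and 6078 in Serum/LIF, 6788, 6523 and 6232 at 3 h, 5486, 5462 and 6114 at 9 h, and 4514, 4767 and 4626 at 24 h. The value at 3 h was above Serum/LIF without a call (0.15 ± 0.048, adjusted p = 0.017), and at 24 h the log2 fold change was -0.34 ± 0.048 (adjusted p = 2.6e-05). Rpl7l1 fell at the earliest time of all: it measured 8792, 8771 and 8585 in Serum/LIF, 7054, 7135 and 7332 at 3 h, and 6388, 6408 and 6288 at 24 h. Its log2 fold change was -0.28 ± 0.032 at 3 h (adjusted p = 3.8e-06) and -0.45 ± 0.032 at 24 h (adjusted p = 1.6e-08). Rpl22l1 measured 1855, 1908 and 2107 in Serum/LIF and 2295, 2456 and 2751 at 9 h, a log2 fold change of 0.35 ± 0.069 (adjusted p = 0.00060), and its parent Rpl22 was also higher at 9 h (0.15 ± 0.032, adjusted p = 0.0012). Rpl22 rose to 20441, 20726 and 20278 at 24 h from 17779, 17319 and 17298 in Serum/LIF (0.23 ± 0.032, adjusted p = 2.4e-05). The muscle form Rpl3l was also called lower at 24 h, from 15.7 to 23.0 normalized counts in Serum/LIF to 3.9 to 8.2, a level close to the limit of detection.

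**Figure D3:**
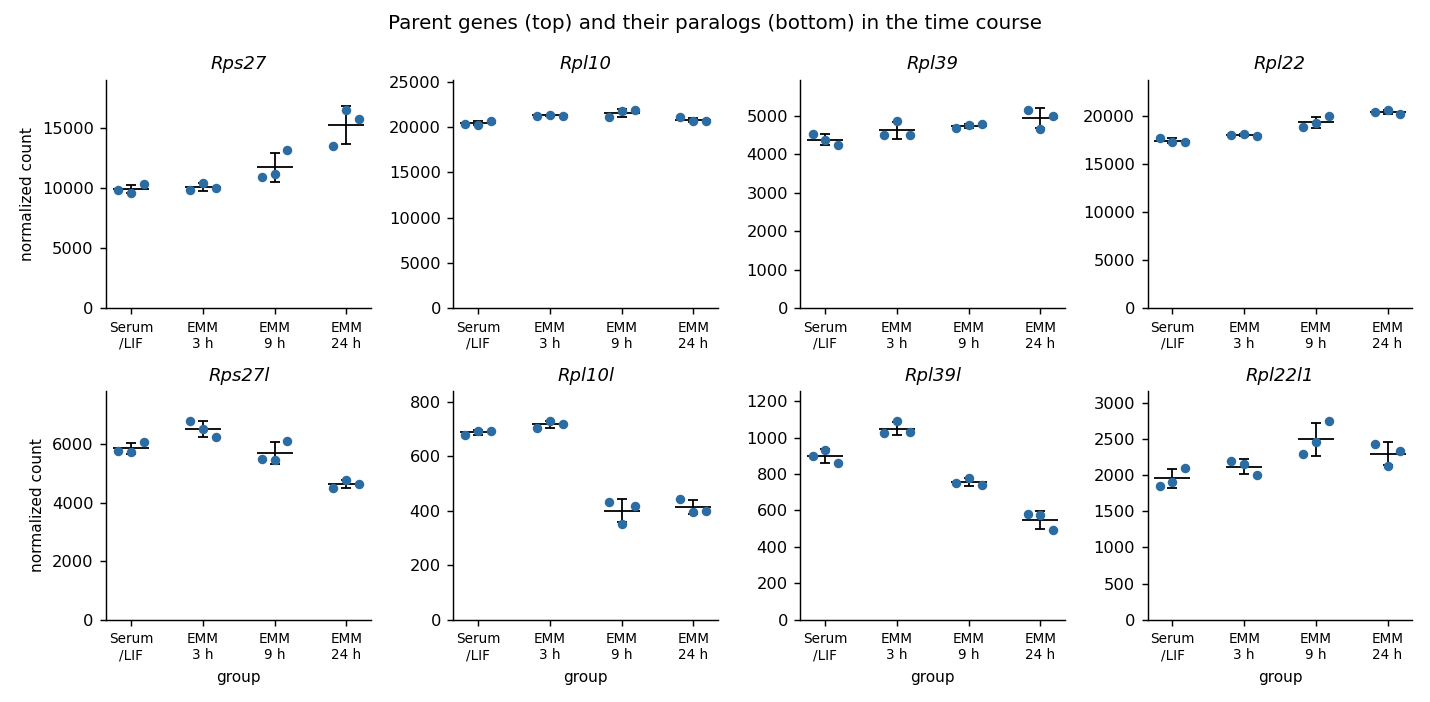
Normalized counts of each of the 3 libraries (points) in Serum/LIF and after 3, 9 and 24 h in EMM for Rps27, Rpl10, Rpl39 and Rpl22 in the upper row and their paralogs Rps27l, Rpl10l, Rpl39l and Rpl22l1 in the lower row, with bars for the mean and whiskers for the SD. Rps27 rises to 13539.7 or more at 24 h while Rps27l falls to 4767 or less, and Rpl10l steps down between 3 and 9 h.

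Compared per kilobase of transcript, the paralog was the minor form in all 7 pairs compared, and the ratio moved in some pairs and not in others. Rps27l stood at 40.8% ± 0.48 (SD, n = 3) of the level of Rps27 in Serum/LIF, 44.6% ± 2.6 at 3 h, 33.5% ± 1.3 at 9 h and 21.1% ± 1.7 at 24 h. Rpl10l stood at 2.62% ± 0.040 of Rpl10 in Serum/LIF and 1.55% ± 0.082 at 24 h, and Rpl39l at 22.8% ± 0.87 of Rpl39 in Serum/LIF and 12.4% ± 1.4 at 24 h. Rps4l went from 32.3% ± 1.4 of Rps4x to 24.3% ± 2.5, Rpl36al from 0.709% ± 0.031 of Rpl36a to 0.507% ± 0.11, and Rpl3l was under 0.1% of Rpl3 in every library, while Rpl22l1 was at 9.63% ± 0.76 of Rpl22 in Serum/LIF and 9.65% ± 0.73 at 24 h. In the passage experiment, Rps27l was at 46.1% ± 2.5 of Rps27 in P10 Serum/LIF, 20.2% ± 0.37 in P10 EMM, 39.8% ± 0.45 in P20 Serum/LIF and 19.7% ± 1.3 in P20 EMM. The 3 groups with 24 h or more in EMM thus had means of 19.7% to 21.1%, although the tables were counted in different ways. In 2i/LIF the ratio was 26.3% ± 7.2 at P10 and 37.9% ± 1.7 at P20. Other pairs differed less at P10: from Serum/LIF to EMM, Rpl39l per Rpl39 was 7.47% ± 0.33 and 8.88% ± 3.0, against the fall in the time course, Rps4l per Rps4x was 17.3% ± 1.9 and 16.8% ± 0.81, and Rpl22l1 per Rpl22 was 34.5% ± 3.2 and 38.0% ± 5.8. Rpl36al per Rpl36a was 50.6% ± 0.75 and 39.1% ± 5.5. At P20 Rpl39l per Rpl39 was 15.5% ± 1.0 in Serum/LIF and 11.3% ± 1.4 in EMM.

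After 10 passages in EMM, the median log2 fold change of the ribosomal protein genes against Serum/LIF was 0.26, against 0.01 over all genes. In all, 21 of 91 genes were higher (23.1%, near the share of all genes) and 2 lower, where 18.7% of all genes were higher and 18.7% lower (37.4% in either direction). Small-subunit core genes made up 15 of the rises, of 31 tested, and large-subunit core genes 4, of 46 tested, with medians of 0.34 and 0.20 on the log2 scale and a fold change above 0 in 30 and 39 genes. The share of all genes called higher, 18.7%, lies between the 2 subunits' shares, and the difference between the subunits itself was not tested. Rps29, a small-subunit zinc finger protein, measured 5977, 5671 and 5986 in P10 Serum/LIF and 8892, 9642 and 9949 in P10 EMM, a log2 fold change of 0.69 ± 0.13 (adjusted p = 0.00024). Rps21, also of the small subunit, measured 5926, 6134 and 5932 in Serum/LIF and 8600.1, 9779 and 10139 in EMM (0.66 ± 0.12, adjusted p = 0.00017). For both genes the lowest EMM library was above the highest Serum/LIF library.

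Rps12 had the widest spread of the large rises. It measured 21203, 23039 and 22198 in P10 Serum/LIF and 28008, 35547 and 46007 in P10 EMM (0.72 ± 0.18, adjusted p = 0.0030), a call lost without P10 EMM library 3 or without P10 Serum/LIF library 1 or 3. Rps15 measured 10706, 9900.2 and 10371 in Serum/LIF and 13913, 17213 and 19368 in EMM (0.70 ± 0.14, adjusted p = 0.00050). Rps27 measured 4056, 3815 and 4505 in Serum/LIF and 6851, 6696 and 5257 in EMM (0.61 ± 0.16, adjusted p = 0.0049), and Rpl22 rose from 7319, 7327 and 7457 to 9033, 10334 and 9965 (0.41 ± 0.086, adjusted p = 0.00073). Rpl10l measured 664, 689.5 and 739 in Serum/LIF and 454, 466 and 522 in EMM, a log2 fold change of -0.54 ± 0.084 (adjusted p = 3.3e-05), and Rps27l 2701, 2683 and 2838 against 1992, 1922 and 1565 (-0.58 ± 0.14, adjusted p = 0.0017). The count of 23 calls was 15 without P10 EMM library 2 or P10 Serum/LIF library 1 or 2, and 41 with a library score built in the same way for this experiment. That score was 9.25, 10.1 and 10.3 in the P10 EMM libraries. Within groups the log2 change per unit of score was 0.27 in Rps12, 0.20 in Rps15, 0.12 in Rps29, 0.12 in Rps21, 0.05 in Rpl22 and -0.22 in Rps27.

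At P20 the same comparison called 26 genes higher and 2 lower, where 13.6% of all genes were higher and 12.5% lower (26% in either direction). Of the core genes, 10 of 46 large-subunit and 15 of 31 small-subunit genes were higher, and 76 of 77 had a fold change above 0, with a median of 0.32 against -0.00036 over all genes. Rps27 measured 4794, 3905 and 3889 in Serum/LIF and 6782, 6626 and 7711 in EMM (0.75 ± 0.16, adjusted p = 0.0014). Rpl10l measured 756, 739 and 861 in Serum/LIF and 423, 468 and 469 in EMM (-0.79 ± 0.081, adjusted p = 7.9e-07). Rpl7l1 fell from 3852, 3484 and 3896 to 2629, 2875 and 2722 (-0.45 ± 0.089, adjusted p = 0.00068). The 28 calls depended on single libraries: 12 were made without P20 EMM library 3 and 11 without P20 Serum/LIF library 2 or 3, and there were 50 with the library score, 49 without a filter on low counts and 51 with only the 2 groups compared.

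The Serum/LIF groups of the passage experiment differed from the others in markers of another cell type. The 7 fibroblast or feeder cell markers summed to 2226 to 2664 normalized counts per library in P10 Serum/LIF and 3579 to 7120 in P20 Serum/LIF, against 286 to 364 in P10 EMM, 152 to 201 in P20 EMM and 45.0 to 98.7 in 2i/LIF. The members did not move alike: Col1a1 went from 1895 ± 289 in P10 Serum/LIF to 10.8 ± 6.9 in P10 EMM (mean ± SD, n = 3), while Thy1, which made up most of the P10 EMM sum, went from 140.1 ± 26.0 to 307 ± 49.0. In P10 EMM, 5 of the 7 markers (Col1a2, Col3a1, Dcn, Lum and Postn) were at or under 3 deposited counts, before normalization, in every library. In the time course the same sum was 1805 to 1892 in Serum/LIF and 1258 to 1482 after 24 h in EMM, while primitive endoderm markers went from 408 to 443 up to 739 to 752 and trophoblast markers from 1766 to 1792 up to 2259 to 2350, with Elf5 at or under 3 deposited counts. The trophoblast sum followed Tfap2c, which went from 1279 ± 2.2 to 1715 ± 38.6, and Krt7, which went from 87.4 ± 11 to 179 ± 16.9, while Cdx2 went from 70.7 ± 13.4 to 33.8 ± 9.2 and Hand1 from 121 ± 5.3 to 119 ± 10.3. In P10 EMM the trophoblast sum was 419 to 558, against 1329 to 1455 in P10 Serum/LIF, and the primitive endoderm sum was 109 to 125, against 172 to 226. Their part in the ribosomal differences was not tested.

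Of the 46 genes called higher at 24 h, those also called higher after long-term EMM culture were 14 at P10 (30.4% of the genes at 24 h and 70% of the 20 P10 genes tested in both experiments) and 19 at P20 (41.3% and 76% of 25). Of the 89 ribosomal protein genes tested in both experiments, 51.7% were higher at 24 h to begin with. Over all 14652 genes tested in both, 23.1% were higher at 24 h, and so were 53.1% of those higher at P10 and 59.4% of those higher at P20. No library is shared between the experiments, but the P10 and P20 values come from 1 fit. Genes called higher in EMM against Serum/LIF at 24 h, P10 and P20 alike numbered 10, including Rpl22, Rpl32, Rps4x, Rps15, Rps18, Rps21, Rps23 and Rps27. Of the 5 genes lower at 24 h, 2 were lower at P10 (Rpl10l and Rps27l) and 2 at P20 (Rpl10l and Rpl7l1), so Rpl10l was the 1 gene lower in all 3. Rpl39l did not keep its direction: lower at 24 h, it measured 275, 267 and 318 in P10 Serum/LIF and 510.3, 522 and 383 in P10 EMM (0.73 ± 0.18, adjusted p = 0.0029), and at P20 the log2 fold change was -0.13 (95% interval -0.50 to 0.23). The P10 call was lost without P10 EMM library 1 or 2 or P10 Serum/LIF library 1 or 2.

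**Figure D4:**
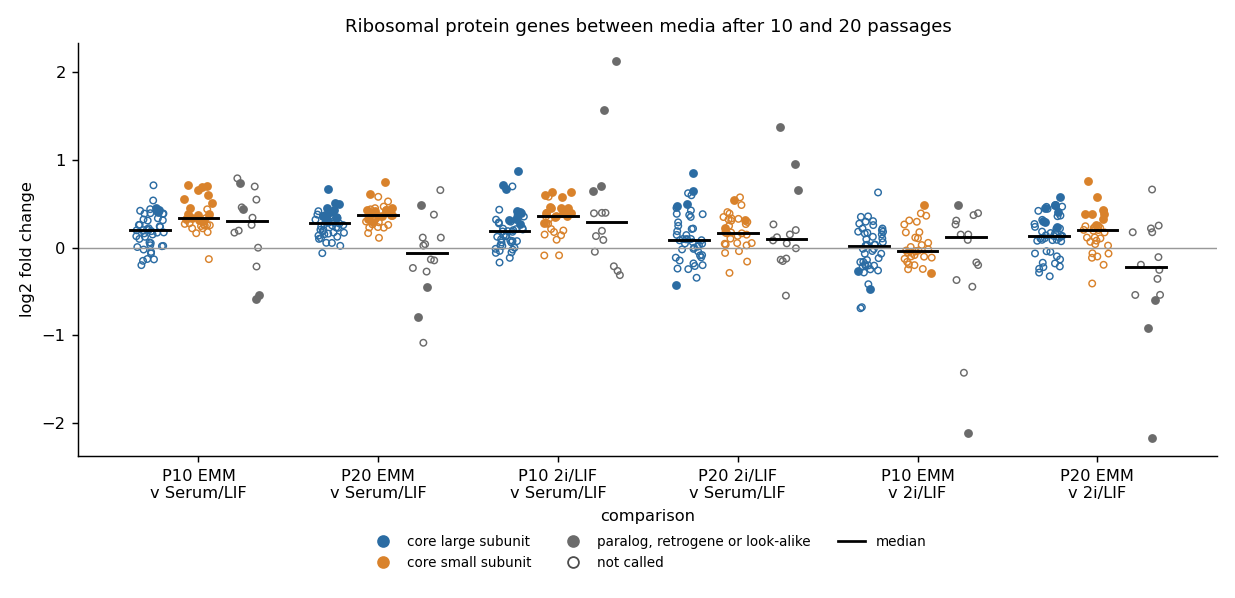
Each point is 1 ribosomal protein gene, with its log2 fold change at P10 and at P20 for EMM against Serum/LIF, EMM against 2i/LIF and 2i/LIF against Serum/LIF on the y axis, split into core large-subunit, core small-subunit and paralog-group genes. Filled points were called, open points were not, and lines are medians. Small-subunit medians against Serum/LIF were 0.34 in P10 EMM and 0.37 in P20 EMM, and Rpl10l lies far below the rest in EMM against 2i/LIF.

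In 2i/LIF at P10, the median log2 fold change of the ribosomal protein genes against Serum/LIF was 0.28, against 0.02 over all genes. Of 91 genes, 29 were higher (31.9%) and none lower, where 26.4% of all genes were higher and 25.6% lower, 52% together (by edgeR; 2 were lower at an unadjusted p under 0.05, and 1 was called lower by DESeq2). Small-subunit genes made up 16 of the rises and large-subunit genes 9, with medians of 0.36 and 0.19. Among called genes with a mean of at least 50 normalized counts, the largest rise was in Rpl10l, from 664, 689.5 and 739 normalized counts in Serum/LIF to 2180.2, 1929 and 2108, a log2 fold change of 1.57 ± 0.081 (adjusted p = 1.6e-11). The muscle form Rpl3l, at 3.0 to 5.8 normalized counts in Serum/LIF and 15.5 to 23.2 in 2i/LIF, had a larger called rise at a level close to the limit of detection (2.13 ± 0.58, adjusted p = 0.0037). Rpl32, of the large subunit, rose from 8618, 8401 and 9241 to 13729.5, 14524 and 14930.0 (0.72 ± 0.080, adjusted p = 3.9e-07), and Rps10, of the small subunit, from 8686, 8602 and 8865 to 13067, 13338 and 13312 (0.60 ± 0.067, adjusted p = 3.9e-07). Both were tight within groups. Rpl17 had a larger fold change, 0.88 ± 0.21 (adjusted p = 0.0016), but a wide spread, with 8479, 15361 and 15241 in P10 2i/LIF against 6872, 6728 and 7649, and its call was lost without P10 2i/LIF library 2 or 3. Without P10 2i/LIF library 2 the count of 29 was 18, and with the library score it was 46.

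Between 2i/LIF and Serum/LIF at P20, 10 genes were higher and 1 lower, where 21% of all genes were higher and 23.2% lower (44.2% in either direction). Rpl10l remained higher, at 2056, 1983 and 2083 against 756, 739 and 861 (1.38 ± 0.080, adjusted p = 1.1e-10). Rps4l, an autosomal copy of the X-linked Rps4x, measured 4895, 4163 and 4317 in P20 Serum/LIF and 8773, 9099 and 8009 in P20 2i/LIF (0.95 ± 0.11, adjusted p = 9.7e-07). The count of 11 calls was 33 with the library score in the fit, 29 without a filter on low counts, 4 with only the 2 groups compared, 5 without P20 2i/LIF library 1 or P20 Serum/LIF library 2 or 3, and 21 without P20 2i/LIF library 2. P20 2i/LIF library 1 was the shallowest of the experiment, and its library score was 10.9, against 7.75 and 8.18 in the other two.

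Several of these P20 2i/LIF calls lie on chromosomes whose genes stood higher as a whole in that group. Over all genes tested, the median log2 fold change of P20 2i/LIF against Serum/LIF was 0.33 for the 746 genes on chromosome 6, 0.45 for the 833 on chromosome 8 and -0.03 for the others. All 4 ribosomal protein genes tested there, including Rpl32 and Rps4l on chromosome 6 and Rpl13 on chromosome 8, were called higher, against 6 higher and 1 lower of the 87 on other chromosomes. The part of the chromosomes in these calls was not tested.

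**Figure D5:**
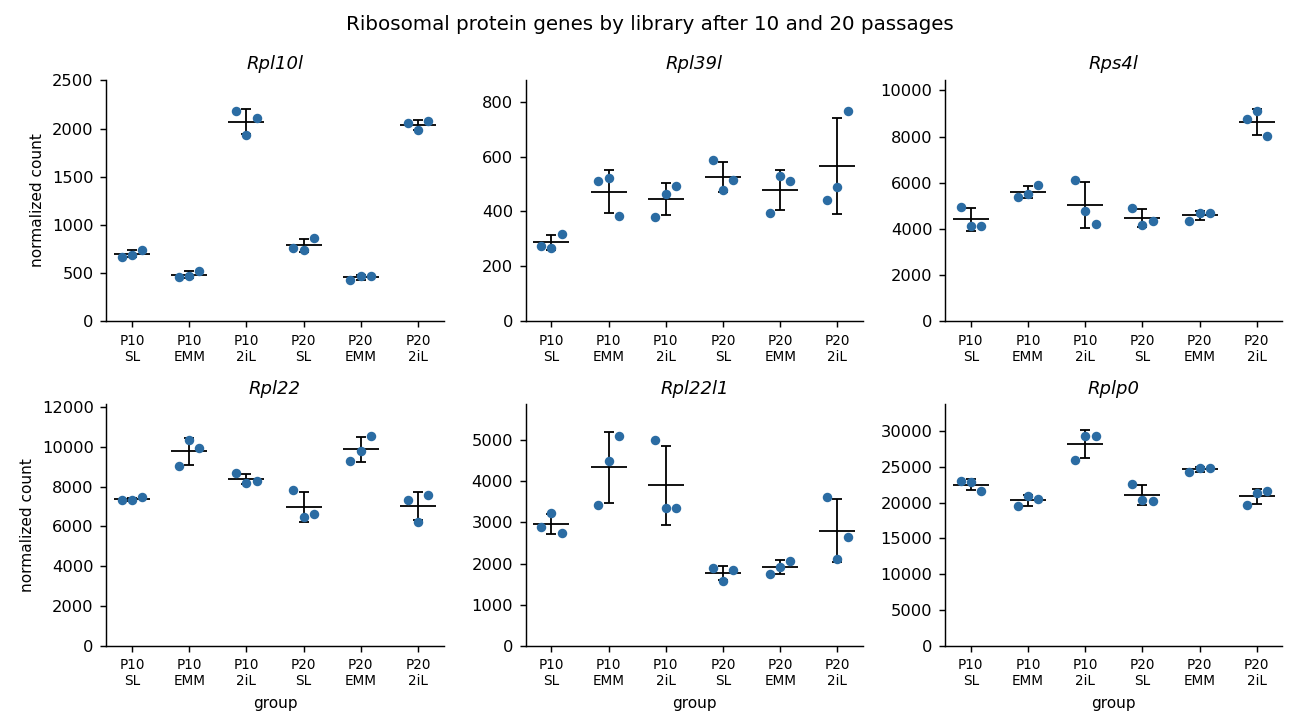
Normalized counts of the 3 libraries (points) in Serum/LIF (SL), EMM and 2i/LIF (2iL) at P10 and P20 for Rpl10l, Rpl39l, Rps4l, Rpl22, Rpl22l1 and Rplp0, with bars for the mean and whiskers for the SD. Rpl10l is lowest in EMM and highest in 2i/LIF at both passages, Rps4l stands out in P20 2i/LIF alone, and Rplp0 exchanges its order between EMM and 2i/LIF from P10 to P20.

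Between the 2 adapted media, EMM against 2i/LIF at P10 differed in few ribosomal genes, with 2 higher and 4 lower where 22.9% of all genes were higher and 22.2% lower (45.1% in either direction). Rpl10l was lower by far the most, at 454, 466 and 522 in EMM against 2180.2, 1929 and 2108 in 2i/LIF, a log2 fold change of -2.12 ± 0.085 (adjusted p = 7.2e-13). Rplp0 was also lower, at 19469.7, 20873 and 20550.3 against 25988, 29269.5 and 29334 (-0.47 ± 0.070, adjusted p = 1.5e-05). Rps19bp1 was higher, at 509, 477 and 541 against 325, 386 and 375 (0.49 ± 0.10, adjusted p = 0.00065). Per kilobase, Rpl10l was at 2.28% ± 0.28 (SD, n = 3) of Rpl10 in P10 EMM, 3.37% ± 0.30 in P10 Serum/LIF and 9.33% ± 0.30 in P10 2i/LIF. The 6 calls were 11 with the library score, 21 without a filter, 13 without P10 2i/LIF library 1 (8 higher and 5 lower) and 11 without P10 EMM library 1 (7 higher and 4 lower), so that leaving out either library turned the balance to more higher than lower. The ratios kept their order at P20, with 2.19% ± 0.11, 4.40% ± 0.65 and 12.1% ± 0.58.

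At P20, EMM stood above 2i/LIF in 16 core genes and below it in 3 paralog-group genes, where 25.7% of all genes were higher and 22.9% lower (48.6% in either direction). The rises were 8 of the 46 large-subunit genes (17.4%) and 8 of the 31 small-subunit genes (25.8%). Rpl28, of the large subunit, measured 14024, 14727 and 16310.5 in EMM and 8012, 10985 and 11174 in 2i/LIF (0.58 ± 0.11, adjusted p = 0.00022). Rpl22 measured 9313, 9786 and 10559.9 in EMM and 7328, 6207 and 7558 in 2i/LIF (0.49 ± 0.086, adjusted p = 8.2e-05). The genes that were lower were Rpl10l (-2.17 ± 0.082), Rps4l (-0.91 ± 0.11) and Rpl7l1 (-0.60 ± 0.090), with adjusted p of 2.8e-13, 1.3e-06 and 1.4e-05. Rps4l lies on chromosome 6, where all genes tested had a median of -0.34 in this comparison, against -0.29 on chromosome 8 and 0.05 elsewhere, and the part of the chromosome was not tested. The count of 19 was 11 without P20 EMM library 3, 32 with the library score, 32 without a filter and 10 with only the 2 groups compared.

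From P10 to P20 the median log2 fold change of the ribosomal genes was -0.26 in 2i/LIF, -0.13 in EMM and -0.15 in Serum/LIF, with 78, 60 and 66 of 91 genes below 0. The calls were 24 in 2i/LIF, 7 in EMM and 1 in Serum/LIF, but this order depended on the fit: with only the 2 groups compared the counts were 2, 22 and 25, and without a filter on low counts there were 29 in EMM and 29 in Serum/LIF. In 2i/LIF, 22 core genes were lower and 2 paralog-group genes, Rps4l and Rpl7l1, higher, where 13.1% of all genes were higher and 15.2% lower (28.3% in either direction), and all 31 small-subunit genes had a fold change below 0. Rplp0 fell from 25988, 29269.5 and 29334 to 19635, 21391 and 21572 (-0.43 ± 0.070, adjusted p = 8.9e-05). Rps15a, a small-subunit protein chosen after its value was seen, fell from 11749, 11766 and 12362 to 7695, 7395 and 9251 (-0.56 ± 0.093, adjusted p = 0.00013). Rps4l rose from 6123, 4785 and 4202 to 8773, 9099 and 8009 (0.78 ± 0.11, adjusted p = 2.8e-05). The 24 calls were 14 without P20 2i/LIF library 2, 15 without P10 2i/LIF library 2 or 3, and 41 with the library score in the fit.

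In EMM, 1 gene rose and 6 fell between P10 and P20, where 13.3% of all genes were higher and 11.9% lower (25.3% in either direction). Rplp0 rose from 19469.7, 20873 and 20550.3 to 24247, 24856 and 24863 (0.28 ± 0.070, adjusted p = 0.0042). Rpl22l1 fell from 3420.4, 4489 and 5111 to 1744, 1918 and 2073, a log2 fold change of -1.18 ± 0.18 (adjusted p = 7.8e-05). The other falls were Rps14, Rps29 and the copies Rps3a1, Rps3a2 and Rps3a3. With the library score in the fit, 6 of these 7 calls were lost and 2 genes were called in all, while DESeq2 called 13. The 7 calls were 11 without P10 EMM library 1, 2 without P20 EMM library 3, and 1 without P10 EMM library 2 or 3 or P20 EMM library 1 or 2. In Serum/LIF the single call with all groups in the fit was Rpl39l, which rose from 275, 267 and 318 to 586, 479 and 513 (0.88 ± 0.18, adjusted p = 0.0036), where 3.16% of all genes were higher and 2.85% lower (6.01% in either direction). No gene was called lower there by edgeR, although 30 were lower at an unadjusted p under 0.05 and DESeq2 called 11. The call of Rpl39l was lost without P10 Serum/LIF library 1 or 2 or P20 Serum/LIF library 1 or 3. Rpl22l1 in Serum/LIF measured 2894, 3234 and 2749 at P10 and 1896, 1574 and 1832 at P20 and missed the threshold (-0.75 ± 0.18, adjusted p = 0.011).

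Tests of the change of each difference from P10 to P20 picked out few genes for EMM against Serum/LIF and more for EMM against 2i/LIF. For EMM against Serum/LIF, Rplp0 was the only call (8.28% of all genes were higher and 6.43% lower, 14.7% together), and it was lost in 11 of the 12 fits without 1 library. For EMM against 2i/LIF, 11 core genes moved upward and Rps4l and Rps19bp1 downward (16.9% and 15.4% of all genes, 32.3% together), and these 13 calls were 24 without P20 2i/LIF library 3 and 8 without P20 EMM library 3. For 2i/LIF against Serum/LIF, Rps4l moved upward and Rpl17, Rps10 and Rps19 downward (9.16% and 10.9% of all genes, 20% together). These 4 calls were 7 without P10 2i/LIF library 1 or P20 2i/LIF library 3, 1 without P10 2i/LIF library 2 or 3 or P10 Serum/LIF library 1, and 2 without P10 Serum/LIF library 2 or 3, P20 2i/LIF library 2 or P20 Serum/LIF library 1.

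The share of all counts taken by the 93 genes also differed between media. It was 7.65% to 7.73% in P10 Serum/LIF, 7.81% to 9.04% in P10 EMM and 8.34% to 9.36% in P10 2i/LIF, so both adapted media lay above Serum/LIF. At P20 it was 6.66% to 7.72% in Serum/LIF, 7.80% to 8.52% in EMM and 6.72% to 7.94% in 2i/LIF, and 2i/LIF overlapped with both of the others. Pseudogene copies with -ps in their symbols, to which misplaced reads could go, took 0.0312% to 0.0320% of counts in Serum/LIF of the time course. They took 0.0321% to 0.0363% at 24 h and 0.17% to 0.25% of passage counts.

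Other gene lists of ribosome production were counted in the same fits, and differences between lists were not tested. Their counts stand against the shares of all genes called higher and lower, which were 16.3% and 18.2% at 3 h, 21.8% and 22.2% at 24 h, 18.7% and 18.7% for P10 EMM, 13.6% and 12.5% for P20 EMM, and 26.4% and 25.6% for P10 2i/LIF. Of 74 genes for rRNA synthesis and nucleolar assembly, 28 were higher and 5 lower at 3 h, and 4 were higher and 40 lower at 24 h, with medians of 0.11 and -0.17. Taf1c, of the RNA polymerase I selectivity factor, was the largest rise at 3 h (0.62 ± 0.062, adjusted p = 1.1e-06), and Polr1e, a polymerase I subunit, the largest fall at 24 h (-0.68 ± 0.053, adjusted p = 5.3e-08). At P10 and P20 in EMM against Serum/LIF the same list gave 10 higher and 11 lower, then 6 higher and 13 lower. Mitochondrial ribosomal proteins gave 8 higher and 4 lower of 77 at 3 h and 2 higher and 24 lower at 24 h, with Mrpl13 the largest fall (-0.59 ± 0.051, adjusted p = 1.7e-07). In EMM against Serum/LIF they gave 10 higher and 1 lower of 78 at P10, and 10 lower at P20, where none was called higher by edgeR (1 at an unadjusted p under 0.05, 0 by DESeq2).

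Translation factors that share the TOP class gave 8 higher and 4 lower of 19 at 24 h, 4 and 1 at P10, and 4 and 1 at P20, in EMM against Serum/LIF. Genes of the mTORC1 and LARP1 arm gave 7 higher and 6 lower of 18 at 24 h. Tsc1 and Ddit4, which both restrain mTORC1, went in opposite directions at 24 h, with log2 fold changes of 0.55 ± 0.052 and -1.23 ± 0.13 (adjusted p = 4.7e-07 and 1.8e-06). In the p53 arm of the checkpoint that senses free 5S particles, 6 of 10 genes were lower at 24 h, 5 in P10 EMM and 6 in P20 EMM. None was higher at 24 h or in P20 EMM by edgeR, by DESeq2 or at an unadjusted p under 0.05. In P10 EMM the calls went in both directions. Bbc3, a p53 target that promotes cell death, fell most at 24 h (-1.21 ± 0.063, adjusted p = 7.0e-10). The p53 target Rps27l was also lower at 24 h and in P10 EMM, but was not called in P20 EMM. In 2i/LIF against Serum/LIF at P10 the p53 arm gave 6 higher and 1 lower, with Cdkn1a, the cell cycle inhibitor, at 2.54 ± 0.085 (adjusted p = 8.4e-14). Rps27l did not rise there, with 2624, 2138 and 2338 normalized counts against 2701, 2683 and 2838 in Serum/LIF. A link between Rps27l and this arm was not tested.

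Fau and Rack1, small-subunit genes that the naming rule does not reach, were not called at 24 h, with log2 fold changes of 0.37 and 0.05. Fau was higher in EMM than in Serum/LIF at P10 (0.62 ± 0.094, adjusted p = 2.3e-05) and at P20 (0.41 ± 0.093, adjusted p = 0.0020). Chaperones and importers of ribosomal proteins gave 1 higher and 5 lower of 15 at 24 h, and snoRNA host genes 1 and 1 of 11. In EMM against Serum/LIF the chaperones gave 2 higher and 2 lower of 16 at P10 and 1 and 2 at P20, and the snoRNA hosts 4 lower of 12 at P10 and 2 lower at P20.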

How the data were processed

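RNA-seq of ribosomal-RNA-depleted libraries was available as 2 gene tables, neither of them normalized. The time-course table holds counts, as whole numbers for each gene, that the authors deposited. The passage table holds expected counts (estimates of reads per gene) as the authors deposited them, and since 9.98% of its values were not whole they were rounded. The submitters' processing notes name STAR, featureCounts, DESeq2 and mm10 for the time course and STAR, Salmon, DESeq2 and mm10 for the passage experiment, with versions not given, while the study's methods name HTSeq with reads assigned to introns or exons. Which of these classes the time-course table holds is not given in the sources used here, and the tables were never fitted together. The passage kit keeps strand and the strand setting of the time course was not given, so overlapping and antisense genes could not be told apart there.

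Columns were matched to samples by their labels. Symbols and coordinates came from GENCODE M21 (GRCm38), and sequence windows from RefSeq (GRCm38.p6). Each experiment was fitted with edgeR 4.0.16 in R 4.3.3, with all its groups in 1 model, after filterByExpr (16049 and 16054 genes tested) and TMM scaling. Calls were taken at an adjusted p under 0.01 with no fold threshold, and the script was tested on simulated data. Totals per library range from 6944904 to 35301962 counts, and a list's markers at or under 3 counts are named as at the floor, which covers counting error only. Intervals of 95% use the t quantile at each gene's total degrees of freedom. The p-values measure the spread between 3 libraries of 1 cell line.

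The members and lists were chosen with earlier results of these data known. Genes were named by rule: in each comparison against Serum/LIF or 2i/LIF, the 5 largest rises and 5 largest falls among called members without overlap and with a mean of 50 normalized counts, plus fixed paralogs, their parents, the P stalk and a few core genes, and the largest change in each list. Outside this rule, further genes were named after their values were seen. These were Rpl36, Rps19 and the other genes with a wide spread, Rps15a from P10 to P20, Rps12 at 3 h and Rps10 in P10 2i/LIF. Also named were Rpl32 in P20 2i/LIF, the genes and copies with uncertain counts and the members of short call lists. Replicate numbers did not pair the libraries. Alternatives covered scaling, filters, DESeq2 1.42.0, the groups in the fit, the replicate block, thresholds and single libraries. The library score was added after seeing the data. Between replicates, the chi-square per degree of freedom of the counts was 2.09 to 57.5, so no library was a repeat of another. Other assays of the study were not used here. Some genes of the set are counted but not reported by name here.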

Additional observations from a re-analysis of the deposited data

Results flagged for a closer look

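Tests of the change of each difference between media from P10 to P20 (edgeR, adjusted p under 0.01 over all genes) passed in 18 cases, given here as the log2 change of the difference.

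For EMM against Serum/LIF, Rplp0 changed by 0.38 ± 0.099 (SE; adjusted p = 0.0089), from -0.15 at P10 to 0.23 at P20, and the call was made in 8 of 20 alternatives.

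For EMM against 2i/LIF, the rises were Rpl10 at 0.36, Rps15a at 0.50, Rpl15 at 0.51, Rpl28 at 0.74, Rps19 at 0.63, Rps10 at 0.49, Rpl23a at 0.53, Rpl34 at 0.88, Rpl17 at 1.16, Rplp0 at 0.71 and Rpl23 at 0.45. Of these 11, Rplp0 moved from called lower at P10 (-0.47 ± 0.070) to called higher at P20 (0.24 ± 0.070), with an adjusted p of 1.8e-05 for the change and a call in 20 of 20 alternatives. Rpl28, Rps19, Rps10, Rpl23a and Rpl34 were also called in all 20, and Rpl23 and Rpl10 in 7 and 9. The falls were Rps4l at -1.06 ± 0.16 (adjusted p = 3.7e-05), called in 20 of 20, and Rps19bp1 at -0.59 ± 0.14 (adjusted p = 0.0029), called in 19.

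For 2i/LIF against Serum/LIF, Rps4l changed by 0.76 and was called in 20 of 20 alternatives, Rps19 by -0.60 (17 of 20), Rps10 by -0.38 (11 of 20) and Rpl17 by -1.12 (10 of 20). Rps4l lies on chromosome 6, where all genes tested moved by a median of 0.18 (log2) from P10 to P20 in 2i/LIF, against -0.04 for genes off chromosomes 6 and 8. Rps4l is an autosomal copy of Rps4x with which it may share reads, so its counts are uncertain. All 3 kinds of difference share libraries, and the part of single libraries, of the chromosomes and of depth in them was not tested beyond these alternatives.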

How the results depend on the processing

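Of the medians, 223 values under the alternatives stayed within the replicate spread and 15 did not, and all 28 shares of counts stayed within it. Of the counts of calls per comparison, 161 stayed within 1.5 times, 92 did not, and 13 turned the balance of higher and lower. In the order 3, 9 and 24 h against Serum/LIF, 9 h against 3 h and 24 h against 9 h, the 8, 21, 51, 4 and 10 calls ranged over 4 to 10, 18 to 26, 46 to 51, 3 to 4 and 4 to 15 when 1 library was left out. For EMM against Serum/LIF, EMM against 2i/LIF and 2i/LIF against Serum/LIF these ranges were 15 to 26, 4 to 13 and 18 to 26 at P10 and 11 to 35, 11 to 27 and 5 to 21 at P20. From P10 to P20 they were 1 to 11 in EMM, 14 to 29 in 2i/LIF and 0 to 1 in Serum/LIF, and for the changes of the differences 0 to 1, 8 to 24 and 1 to 7. Medians ranged over 0.059 to 0.088, 0.081 to 0.13, 0.16 to 0.20, 0.0043 to 0.060 and 0.05 to 0.09 in the time course, 0.25 to 0.34, -0.02 to 0.06 and 0.22 to 0.30 at P10, 0.25 to 0.40, 0.07 to 0.22 and 0.09 to 0.22 at P20, and -0.19 to -0.08, -0.31 to -0.20 and -0.25 to -0.10 from P10 to P20.

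The library score, which comes from these same libraries, gave 22, 42, 9 and 21 calls at 3 h, 9 h, 9 h against 3 h and 24 h against 9 h, then 41, 11 and 46 at P10, 50, 32 and 33 at P20, 2, 41 and 2 from P10 to P20, and 2, 20 and 8 for the changes. It turned Rpl36 at 24 h to -0.17, still not called. Library totals alone gave 3 at 3 h (median 0.0054), 7 at 9 h against 3 h with 5 higher (median 0.078), 10 for P10 EMM against 2i/LIF, 17 for P20 EMM against Serum/LIF, 5 from P10 to P20 in EMM with 3 higher, 23 and 9 for the last 2 changes, and a P10 EMM median of 0.16. With no filter there were 23 at 3 h (median 0.10), 38 at 9 h, 15 at 9 h against 3 h with 10 higher, 22 at 24 h against 9 h, 21 for P10 EMM against 2i/LIF with 13 higher, 49, 32 and 29 at P20, 29 in EMM and 29 in Serum/LIF from P10 to P20, and 3, 28 and 13 for the changes. The medians without a filter were 0.20 at 24 h and 0.21 for P10 2i/LIF, and with at least 10 counts 0.20 for the latter and 2 calls from P10 to P20 in Serum/LIF.

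DESeq2 gave 13 at 3 h, 8 at 9 h against 3 h, 13 in EMM and 12 in Serum/LIF from P10 to P20, of which 11 were lower, and 2, 20 and 7 for the changes. With only the 2 groups compared, there were 15 at 3 h (median 0.087), 5 at 24 h against 9 h, 51, 10 and 4 at P20, and 22, 2 and 25 from P10 to P20. An adjusted p under 0.05 gave 19, 39, 9 and 20 in the time course, 40 and 23 for EMM at P10, 44, 35 and 25 at P20, 29, 40 and 17 from P10 to P20, and 3, 32 and 14 for the changes. A fold change over 2 left 0 at 3 h, 9 h, 9 h against 3 h and 24 h against 9 h, 1 lower at 24 h, 0, 1 and 2 at P10, 0, 1 and 1 at P20, and 1, 0 and 0 from P10 to P20. Core genes alone gave 0 at 9 h against 3 h, and 4 in EMM and 0 in Serum/LIF from P10 to P20, and 7 calls in P20 2i/LIF against Serum/LIF lay off chromosomes 6 and 8. A looser threshold can only add calls, and a fold requirement or fewer members can only remove them; the cause was not tested for the other settings.

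The replicate block by title number gave 11 calls at 3 h, 54 at 24 h, 22 and 28 for EMM against Serum/LIF at P10 and P20, and 0 for its change, and by description number 6 and 44 at 3 and 24 h. Deviations of same-numbered libraries had a mean correlation of 0.027, 0.044 and 0.0055 by title and description in the time course and in the passage experiment, so the numbers were not taken as pairs.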
